A study of Danio rerio with 2 samples.

Results

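The collagen and laminin genes were followed here through the cells of the zebrafish tailbud, the posterior end of the embryo where the axis is still being laid down. Members were taken by symbol alone: every row of the feature table whose name began as a numbered collagen alpha chain (col, number, a, number) or as a laminin alpha, beta or gamma chain (lama, lamb or lamc with a number). This gave 68 of 27771 genes, of which 55 were collagen rows and 13 laminin rows. There was 1 wild-type library and 1 *stag2b-/-* library, the latter homozygous for the nz207 allele of *stag2b*, which encodes a subunit of the cohesin ring. Both were made from tailbuds dissected at 16 hpf from pooled embryos, so the individual embryo cannot be followed. The public labels name AB as the wild-type strain and the methods name WIK. With 1 library per genotype no test between genotypes is possible, every interval below covers counting error only, and differences between strain, pool or library cannot be told apart from genotype.

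Collagens are trimers of alpha chains wound into a triple helix. Fibrillar types (I, II, V, XI and XXVII) form fibrils, FACIT types (IX, XII, XIV, XVI and XIX) decorate them, type IV forms the meshwork of basement membranes, types XV and XVIII carry glycosaminoglycan chains there, type VII anchors epidermis to dermis, and types VI and VIII form microfibrils and short-chain lattices. Laminins are cross-shaped trimers of an alpha, a beta and a gamma chain that polymerize on the cell surface and start basement membrane assembly. In zebrafish the notochord is wrapped in a collagen-rich sheath on a laminin basement membrane, and embryos that lack *lama1*, *lamb1a* or *lamc1* fail to form a normal notochord.

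Wild type held 18704 barcodes with a median of 15695.5 unique molecular identifiers (UMIs, counts of captured transcript molecules) and *stag2b-/-* held 26360 with a median of 13921.5. The libraries shared 125 barcodes. After filters and removal of called doublets (4.46% and 9.98% of barcodes), 17469 and 23360 cells were kept. A cell joined a class when at least 3 of that class's marker genes had at least 2 UMIs each and no other class had as many markers; no collagen or laminin was a marker. Of 18 classes, 13 had at least 50 cells in each library, and 20.2% of wild-type and 18.8% of *stag2b-/-* cells stayed without a class. The classes ranged from 69 cells (neural crest-like, wild type) to 8949 (posterior presomitic mesoderm-like, *stag2b-/-*). Among the genes that set a class apart, *dand5* led the NMP-like class (neuromesodermal progenitors) and *chrd* the neural progenitor-like class of wild type, and neither is a marker of that class. The periderm-like class was the shallow one (median UMIs 2746 in wild type, 5143 in *stag2b-/-*), and its values are given apart where they count. The transcript of *stag2b* itself was lower in *stag2b-/-* in 13 of 13 classes, by log2 ratios between -1.09 and -0.44. Levels below are UMIs of a gene per 1000000 UMIs of its class (CPM) with exact Poisson 95% intervals, and they are compared between classes or genotypes within a gene, not between genes.

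No member was without a UMI, but only 39 of 68 reached 20 CPM in some class of a library, 32 collagens and 7 laminins. The summed level of all members was highest in notochord-like cells (5779 CPM in wild type versus 7068 in *stag2b-/-*), next in basal epidermis-like cells (4907 and 5714) and lowest in erythroid-like cells (174 and 190). By the class where each member was highest in wild type, 13 members were notochord-like, 12 basal epidermis-like, 9 muscle-like, 2 somite-like and 1 each neural progenitor-like, neural crest-like and endothelial-like. Of all genes at 20 CPM, 11.8% were highest in notochord-like, 7.24% in basal epidermis-like and 9.14% in muscle-like cells. In *stag2b-/-*, 36 members reached 20 CPM in some class, and 14, 11 and 6 of them were highest in notochord-like, basal epidermis-like and muscle-like cells. Of all genes at 20 CPM in *stag2b-/-*, 10.7%, 7.3% and 8.22% were highest in these classes. No member was highest in the NMP-like, posterior or anterior presomitic class. Of all genes, 7.03%, 1.66% and 1.59% were highest there in wild type and 8.22%, 1.8% and 1.58% in *stag2b-/-*. For the presomitic classes an absence is near the share of all genes. The highest class was the same in both libraries for 32 of 36 members, and the exceptions *col4a1*, *lama1*, *lama5* and *lamc1* exchanged their first and second class. The top class had an interval apart from that of the next class for 32 members in wild type and 35 in *stag2b-/-*. It was at least 5 times the next for 17 and 19 members. The like counts over all genes were not made, so these describe the members alone.

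**Figure D1:**
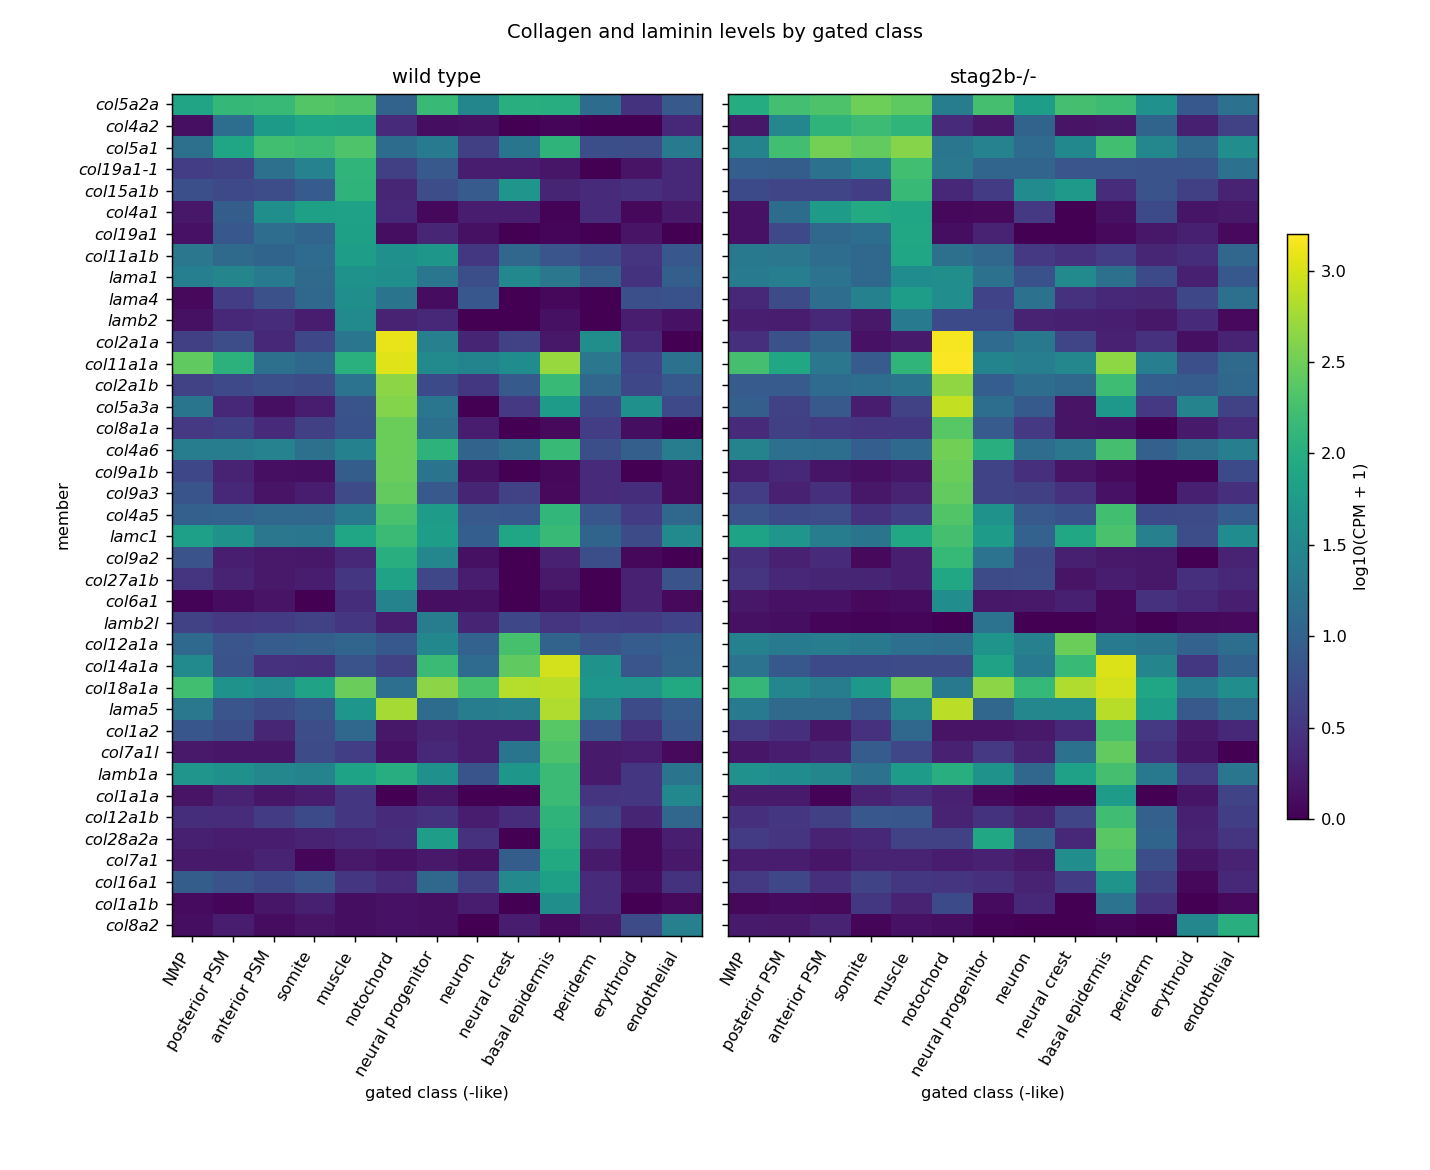
Levels of the 39 members with at least 20 CPM in some class (rows, ordered by the class that was highest in wild type) across the 13 gated classes (columns) in wild type (left) and *stag2b-/-* (right), coloured by log10 of CPM plus 1. Blocks of members stand out in the muscle-like, notochord-like and basal epidermis-like columns, and *col5a2a*, *col18a1a*, *lamb1a* and *lamc1* reach across many columns.

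The notochord-like block held the cartilage-type set. The type II chain *col2a1a*, the main fibrillar chain of the sheath, stood at 1247 CPM (1221 to 1274) in wild type versus 1449 CPM (1420 to 1479) in *stag2b-/-*. In wild type its next class was periderm-like at 36.8 CPM, from 53 UMIs of which 43 lay in 1 cell. After every cell was thinned to 5000 UMIs, 43.5% of wild-type and 39.9% of *stag2b-/-* notochord-like cells had a *col2a1a* UMI, against 0.673% and 0% of erythroid-like cells, a blood class that serves as background. Without thinning the shares were 47.8% and 43.5% in notochord-like and 1.98% and 0.647% in erythroid-like cells. Its paralogue *col2a1b* was at 440.1 CPM in wild type versus 459 in *stag2b-/-*, and unlike *col2a1a* it was also present in basal epidermis-like cells (143 and 161 CPM). The type XI chain *col11a1a*, which sets fibril diameter, was at 1115 and 1496 CPM. It was not restricted to the notochord: basal epidermis-like cells had 514 and 449 CPM and NMP-like cells 258 and 181 CPM.

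The type IX chains, FACIT collagens that coat type II fibrils, were closer to notochord alone. The chain *col9a1b* was at 293 CPM in wild type versus 306 in *stag2b-/-*, with its next wild-type class, neural progenitor-like, at 16.0 CPM. The chain *col9a3* was at 268 and 270 CPM against 6.84 CPM in the next wild-type class. The chain *col9a2* was at 101 and 138 CPM, with 29.1 CPM in wild-type neural progenitor-like cells. Other members of this block were the short-chain collagen *col8a1a* (305 and 230 CPM), which zebrafish need for notochord shape, *col5a3a* (398 and 806 CPM), the fibrillar chain *col27a1b* (69.1 and 81.5 CPM) and the type VI chain *col6a1* (25.8 and 36.1 CPM). The type IV chains *col4a5* and *col4a6* were highest in notochord-like and next in basal epidermis-like cells, but were not confined to them. Wild-type neural progenitor-like cells had 58.2 CPM of *col4a5* and 116 CPM of *col4a6*, and *col4a6* reached 20 CPM in 8 wild-type classes. In wild type *col4a5* was at 191 CPM in notochord-like and 131 CPM in basal epidermis-like cells, and *col4a6* at 299 and 145 CPM.

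The basal epidermis-like block was led by *col14a1a*, a FACIT collagen, and *col18a1a*, the source of endostatin. Wild-type cells of this class had 948 CPM (936 to 959) of *col14a1a* and *stag2b-/-* cells 1081 CPM (1069 to 1093), and a UMI was found in 86.2% and 82.7% of thinned cells. For *col18a1a* the levels were 736 and 947 CPM. Both were also high in neural crest-like cells, where *col18a1a* stood at 689 CPM in wild type versus 667 in *stag2b-/-* and *col14a1a* at 262 and 143 CPM. The type I chains were skin genes at this stage: *col1a2* was at 230.1 and 183 CPM, *col1a1a* at 149 and 55.7 CPM, and *col1a1b* at 38.0 and 15.6 CPM. The anchoring fibril genes *col7a1* (87.5 and 208 CPM) and *col7a1l* (202 and 270 CPM) belonged here as well, with *col12a1b* (119.9 and 164 CPM), *col28a2a* (107 and 241 CPM) and *col16a1* (64.2 and 43.7 CPM). Next to the basal cells, periderm-like cells had 43.1 and 27.5 CPM of *col14a1a* and 0.695 and 4.88 CPM of *col7a1*.

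Muscle-like cells carried a different set. The type XV chain *col15a1b*, a muscle basement membrane collagen, was at 121 CPM in wild type versus 145 in *stag2b-/-*, and its next class was neural crest-like at 45.7 and 52.3 CPM. The feature table holds 2 rows that map to a single RefSeq gene for type XIX collagen, so reads may be split between them. The row *col19a1-1* was at 123 and 170 CPM and the row *col19a1* at 64.9 and 78.8 CPM, both highest in muscle-like cells. Type V, which starts fibrils of type I, was broad in the paraxial mesoderm. In muscle-like cells *col5a1* stood at 208 and 419 CPM, and *col5a2a*, at 222 CPM in wild-type somite-like cells, was above 20 CPM in 9 wild-type classes.

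Outside these blocks, few members had a home. The FACIT chain *col12a1a* was highest in neural crest-like cells at 182 CPM (159 to 207) in wild type versus 305 CPM (283 to 329) in *stag2b-/-*. The short-chain collagen *col8a2* was highest in endothelial-like cells at 23.5 CPM (19.3 to 28.3) and 102 CPM (93.3 to 112), with erythroid-like cells next at 4.62 and 29.5 CPM. In the other classes *col8a2* did not pass 1.03 CPM. Neural progenitor-like cells had 444 CPM of *col18a1a* in both libraries, and 49.0 CPM of *col11a1b* in wild type against 10.3 CPM in *stag2b-/-*. In neuron-like cells 4 members passed 20 CPM in wild type, namely *col18a1a* (187 and 139 CPM), *col5a2a* (28.4 and 60.2 CPM), *col11a1a* (26.5 and 22.6 CPM) and *lama5* (21.2 and 28.9 CPM).

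Of the 13 laminins, 7 reached 20 CPM and they differed in breadth. The shared chains were the broad ones: *lamc1* (gamma) passed 20 CPM in 8 classes of wild type, from 32.0 CPM in endothelial-like to 151 CPM in notochord-like cells, and *lamb1a* (beta) was at 97.0 CPM in notochord-like and 153 CPM in basal epidermis-like cells. The alpha chains had unlike but overlapping patterns, and in wild type *lama5* reached 20 CPM in 6 classes and *lama1* in 5. The chain *lama5*, which zebrafish need for the fin fold, was at 662 CPM in basal epidermis-like and 581 CPM in notochord-like cells of wild type, and no other class passed 47.6 CPM. The chain *lama1* was at 42.2 CPM in muscle-like, 38.1 CPM in notochord-like, 29.96 CPM in neural crest-like and 27.3 CPM in posterior presomitic mesoderm-like cells of wild type. The intervals of its muscle-like and notochord-like levels overlapped. The chain *lama4* was highest in muscle-like cells (38.7 and 58.9 CPM), as was the beta chain *lamb2* (31.6 and 19.5 CPM), which the basement membrane of zebrafish muscle contains. The neighbour of *lamb2*, *lamb2l*, was highest in neural progenitor-like cells at 20.9 and 15.3 CPM.

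The 29 members under 20 CPM in every class were 23 collagens and 6 laminins. Among them were the type VI chain *col6a2* at 16.9 CPM in wild-type notochord-like cells, and *lamc3* at 9.11 CPM and *col11a2* at 5.37 CPM in the same class. The epidermal laminin chain *lama3* reached at most 1.14 CPM in wild type, in neuron-like and not epidermal cells. Its next class, neural progenitor-like, was at 0.0912 CPM with an overlapping interval. In *stag2b-/-* it was again highest in neuron-like cells, at 1.35 CPM, with an interval apart from that of the next class. Over all deposited barcodes *lama3* had only 13 UMIs in wild type and 9 in *stag2b-/-*. Both col17a1 genes, hemidesmosome collagens of mature skin, reached at most 1.58 CPM in a wild-type class, and the type X genes at most 0.0912 CPM. The basement membrane chains *col4a3* and *col4a4* peaked at 2.62 and 3.88 CPM.

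Genes that lie next to each other were in part alike. In the RefSeq annotation of another assembly (GRCz12tu), where all 68 rows found a match, 7 pairs of members were neighbours. Across the 13 classes the levels of *col4a5* and *col4a6*, which share a divergent promoter in mammals, had a Spearman rho of 0.97 in wild type and 0.86 in *stag2b-/-*. For *col4a1* and *col4a2*, which are also divergent in mammals, rho was 0.71 and 0.93. The pair *col16a1* and *col9a2* had a rho of 0.04 and -0.32, the first highest in basal epidermis-like and the second in notochord-like cells, and *lamb2* and *lamb2l* had -0.11 and 0.03. These coefficients describe 13 classes of 1 library each and carry no test.

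Within the notochord-like class the sheath collagens were not evenly spread. The class was divided by *noto*, a transcription factor gene of axial progenitors, into cells with at least 2 *noto* UMIs (420 in wild type, 345 in *stag2b-/-*) and cells with no *noto* UMI (66 and 90). The cells without *noto* were the deeper ones, with a median of 21148.5 UMIs against 11861.5 in wild type and 18896.5 against 13417 in *stag2b-/-*. They had 1263 CPM of the notochord gene *cmn* against 59.4 in wild type, while *tbxta* stood at 1250 and 1255 CPM and *foxa2* at 222 and 607 CPM. Of other notochord markers, *foxa* (562 and 228 CPM) and *shha* (641 and 383) were higher without *noto*, and *twist2* (295 and 774) and *chrd* (1.66 and 10.4) lower. All these genes and *noto* are markers of the gate. A cell without *noto* joined the class through the others, so these levels are partly set by the gate. In wild type, 16 of the 20 members with at least 20 CPM in the higher state were at least 1.5-fold higher in cells without *noto*, where 22.7% of all genes were, and 2 were at least 1.5-fold lower, where 22% of all genes were. In *stag2b-/-* the counts were 16 of 21 higher (21.2% of all genes) and 3 lower (27.1%). Among the higher members, *lamc3*, *lama4*, *col6a2* and *col6a1* in wild type and *col19a1-1*, *col6a2* and *col6a1* in *stag2b-/-* were under 20 CPM in noto-positive cells. They met the minimum through the higher state alone, as did *lama1* among the lower members of wild type and all lower members of *stag2b-/-*. The median log2 ratio over the members was 1.83 in wild type and 2.37 in *stag2b-/-*, against -0.05 and -0.15 over all genes tested. The *stag2b-/-* cells are a second library, not a replicate.

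The type IX chain *col9a2* and the fibrillar chains *col5a3a* and *col2a1a* had the largest ratios in wild type. The level of *col2a1a* was 4541 CPM in wild-type cells without *noto* and 439.7 CPM in noto-positive cells, a log2 ratio of 3.37 (3.30 to 3.44), and 4686 and 236 CPM in *stag2b-/-*, a ratio of 4.31 (4.22 to 4.40). For *col9a2* the wild-type levels were 428 and 22.8 CPM, a log2 ratio of 4.23 (3.94 to 4.53). For *col5a3a* they were 1466 and 134 CPM, a ratio of 3.45 (3.32 to 3.58). In every one of these the cells without *noto* held the far higher level in both libraries. The type VI pair followed, with log2 ratios of 3.33 for *col6a2* and 2.46 for *col6a1*, and so did *col27a1b* (3.19), *col8a1a* (2.40), *col11a1a* (2.13) and *col2a1b* (2.07). Of these, *col6a2* (6.03 CPM) and *col6a1* (13.6 CPM) were under 20 CPM in noto-positive cells of wild type.

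The laminins split. The alpha chain *lama5* was higher without *noto*, at 988 against 469.5 CPM in wild type (log2 ratio 1.07, 0.97 to 1.17) and 1351 against 476 CPM in *stag2b-/-*. The alpha chain *lama1* was lower, at 9.95 against 45.4 CPM in wild type (-2.19, -3.16 to -1.36) and 17.3 against 45.5 CPM in *stag2b-/-*. The shared chains *lamb1a* and *lamc1* had wild-type ratios of 0.01 (-0.29 to 0.30) and 0.00 (-0.24 to 0.24). Wild-type cells without *noto* thus carried more *lama5* and less *lama1* at a like level of the beta and gamma chains. In *stag2b-/-* the ratios of *lamb1a* and *lamc1* were 0.50 (0.25 to 0.74) and -0.22 (-0.42 to -0.01). The other member past the fold in the lower direction in wild type was *col11a1b* (24.9 against 42.4 CPM).

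**Figure D2:**
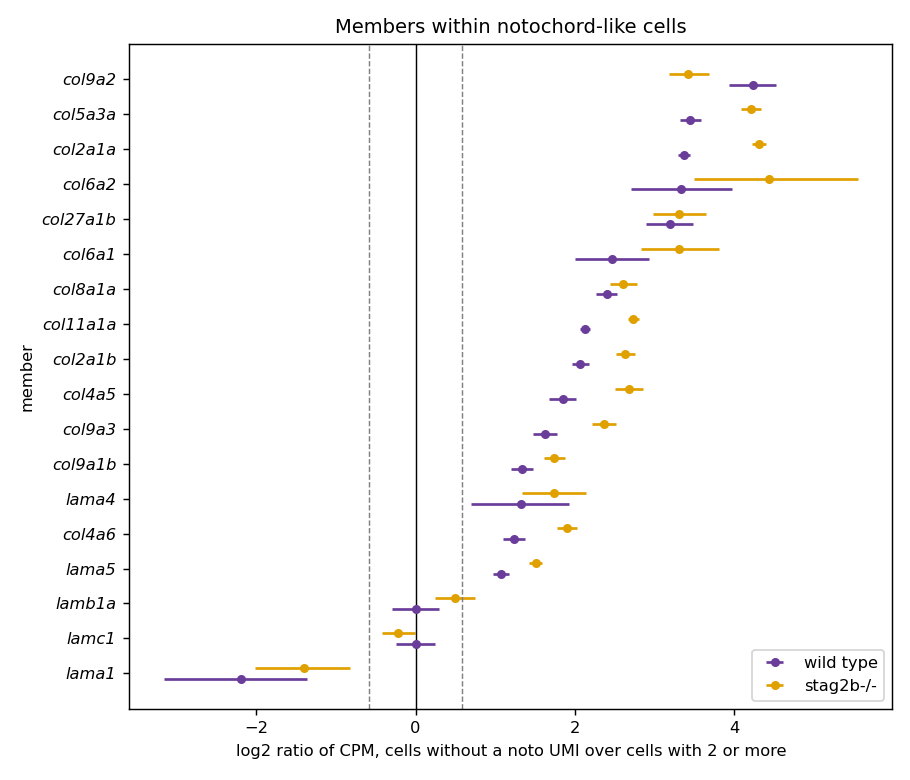
Log2 ratio of CPM in notochord-like cells without a *noto* UMI over those with at least 2, for the members tested in both libraries (wild type purple, *stag2b-/-* orange), with exact 95% counting intervals and dashed lines at 1.5-fold. The points of *col9a2*, *col5a3a* and *col2a1a* lie above 3 in both libraries, those of *lamb1a* and *lamc1* between -0.22 and 0.50, and that of *lama1* below -1.

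Along the paraxial mesoderm the members also exchanged. From posterior presomitic mesoderm-like to somite-like cells, 6 of 11 tested members of wild type were at least 1.5-fold higher (8.2% of all genes) and 4 at least 1.5-fold lower (11.2%), and in *stag2b-/-* 7 of 11 were higher (8.65%) and 4 lower (11.1%). Among the higher members, *col4a1*, *col4a2* and *col19a1-1* in wild type and *col4a1*, *lama4* and *col19a1-1* in *stag2b-/-* were under 20 CPM in posterior cells. All the lower members were under 20 CPM in somite-like cells. Each of these met the minimum through the higher class alone. The basement membrane chain *col4a1* had the largest log2 ratio of somite-like over posterior cells in both libraries (3.03 and 2.83). Its level was 7.88, 38.4, 64.4 and 67.5 CPM in posterior presomitic, anterior presomitic, somite-like and muscle-like cells of wild type, and 12.4, 57.1, 88.2 and 77.1 CPM in *stag2b-/-*. Its partner *col4a2* was at 13.3, 54.5, 76.5 and 72.6 CPM in wild type and 29.3, 119, 153 and 123 CPM in *stag2b-/-*. In both libraries the step between the presomitic classes was the largest ratio along the series for this pair.

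Type V was already present posteriorly. In wild type *col5a1* went from 75.6 to 168, 157 and 208 CPM along the same classes, and in *stag2b-/-* from 171 to 341, 272 and 419 CPM. The somite-like over posterior log2 ratios were 1.05 and 0.67 for *col5a1*, 0.73 and 0.82 for *col5a2a*, and *col19a1-1* went from 3.14 to 25.1 CPM in wild type and from 7.67 to 24.2 CPM in *stag2b-/-*. In the opposite direction, *col11a1a* was at 114 CPM in wild-type posterior presomitic cells, 14.3 in anterior presomitic, 10.8 in somite-like and 106 in muscle-like cells, so that it was low in the middle of the series and high at both ends. The laminin chains *lamc1* (41.4 to 17.2 CPM, log2 ratio -1.27) and *lama1* (27.3 to 11.7 CPM, -1.22) were lower in somite-like than in posterior presomitic cells of wild type, and both were at higher levels again in muscle-like cells. The alpha chain *lama4* was at 2.80 CPM posteriorly and 10.8 CPM in somite-like cells of wild type, and at 4.47 and 24.8 CPM in *stag2b-/-*.

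**Figure D3:**
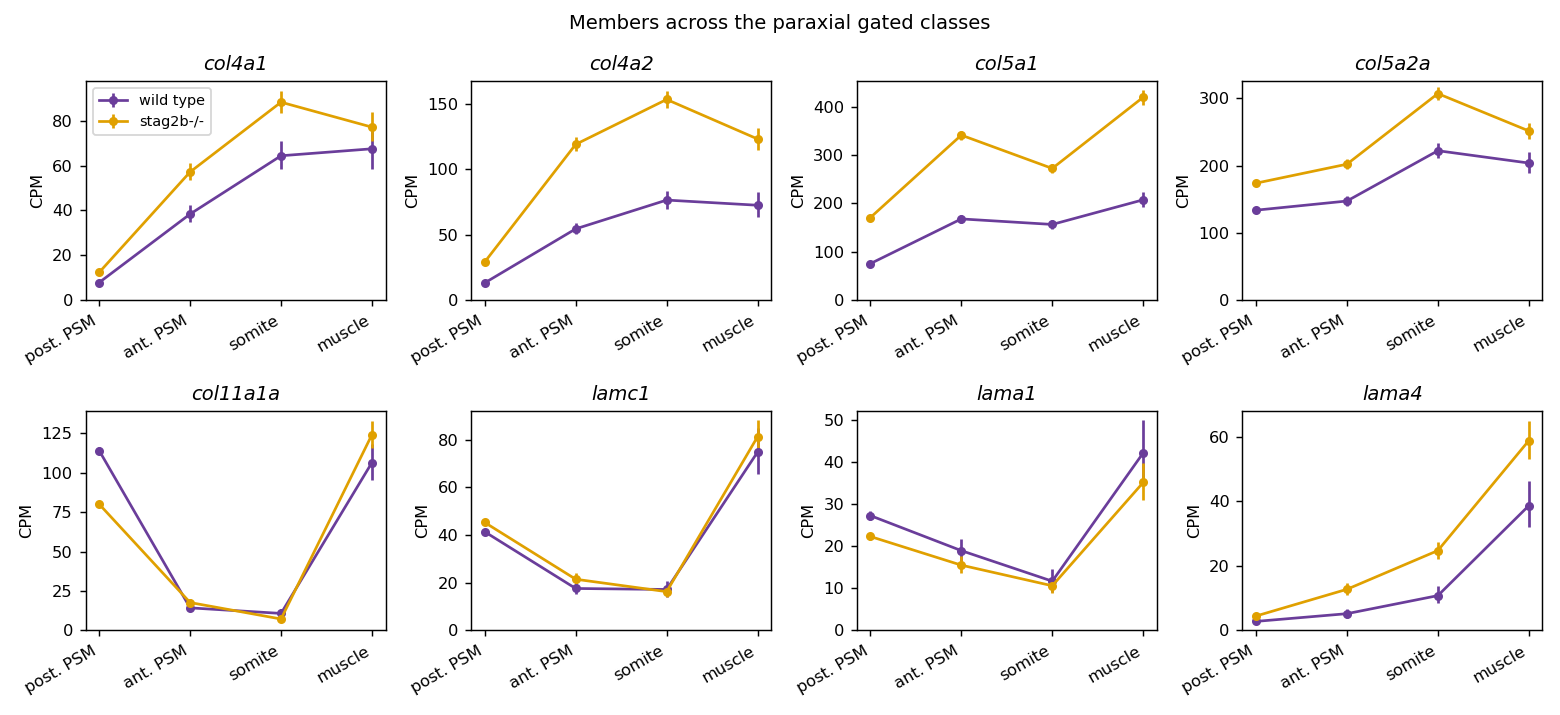
Levels in CPM of 8 members in posterior and anterior presomitic mesoderm-like (PSM), somite-like and muscle-like cells of wild type (purple) and *stag2b-/-* (orange), with exact Poisson 95% intervals. The *col4a1*, *col4a2*, *col5a1* and *lama4* lines lie higher in somite-like than in posterior cells, while those of *col11a1a*, *lamc1* and *lama1* dip in the middle of the series, and the *stag2b-/-* line of *col5a1* and *col4a2* lies above wild type in every class shown.

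Between genotypes, 144 pairs of a member and a class reached 20 CPM in the higher library. Of these, 34 were at least 1.5-fold higher in *stag2b-/-* (23.6%, against 13.7% of all gene-class pairs) and 23 at least 1.5-fold lower (16%, against 5.78%). Without periderm-like cells, a set chosen after seeing the data, the counts were 29 and 21 of 136, against 11.5% and 5.71% of all pairs. At 2-fold, 24 pairs were higher (4.93% of all pairs) and 12 lower (2.29%). With at least 50 CPM, 18 of 82 member pairs were higher (22%, against 9.51% of all pairs) and 4 lower (4.88%, against 5.15%), so the share of lower members was above that of all genes at 20 CPM but not at 50 CPM. In 16 of the 34 higher and 15 of the 23 lower pairs the other library was under 20 CPM. All of these are descriptions, and pairs of 1 gene in several classes share that gene, so they are not independent. By member, 10 passed the fold upward only, 10 downward only, 3 in both directions and 16 in no class. Counts by gene over all genes were not made. The median gene had a log2 ratio between 0.08 and 0.15 in the classes other than periderm-like, where it was 0.37.

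**Figure D4:**
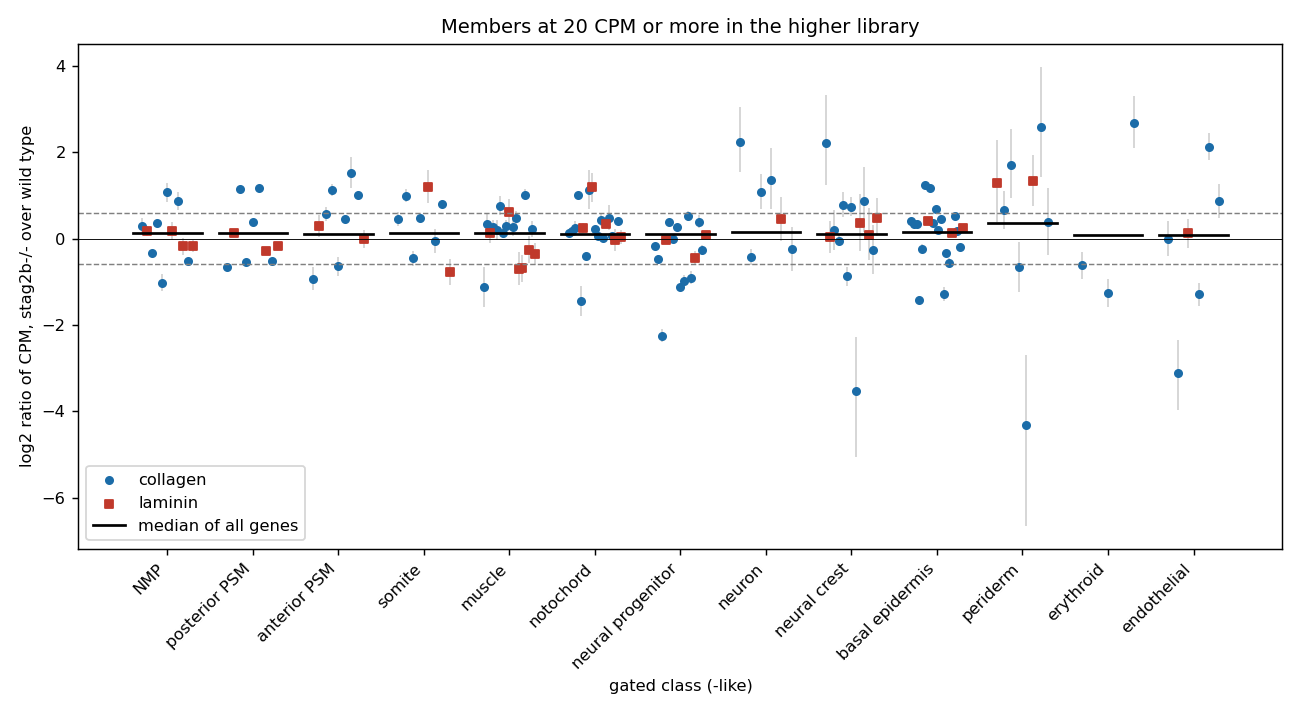
Log2 ratio of CPM, *stag2b-/-* over wild type, of each collagen (circles) and laminin (squares) that reached 20 CPM in either library, by class, with exact 95% counting intervals in grey, the median of all genes as a black bar and 1.5-fold as dashed lines. Most members lie between the dashed lines, and the widest intervals belong to the neural crest-like and periderm-like classes.

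By class, the counts were small. In notochord-like cells 3 of 19 members were at least 1.5-fold higher (10.9% of all genes) and 1 lower (5.46%), and in basal epidermis-like cells 3 of 20 were higher (11.3%) and 2 lower (4.3%). In muscle-like cells 3 of 17 were higher (15.4%) and 3 lower (6.59%), in somite-like cells 3 of 8 higher (12.1%) and 1 lower (5.21%), in anterior presomitic cells 3 of 9 higher (10.4%) and 2 lower (5.46%), and in posterior presomitic cells 2 of 9 higher (7.83%) and 1 lower (4.3%). Neural progenitor-like cells had 0 of 15 higher (7.57%) and 4 lower (5.23%). An absence among 15 members is near the share of all genes, and of the 4 lower members only *col14a1a* was at 20 CPM in both libraries. The remaining classes had 2 of 11 higher and 1 lower in NMP-like (8.33% and 5.08%), 3 of 6 and 0 in neuron-like (16.5% and 5.35%), 4 of 13 and 2 in neural crest-like (15.7% and 7.51%), 2 of 6 and 2 in endothelial-like (10.2% and 7.57%), and 1 of 3 and 2 in erythroid-like cells (11.9% and 6.42%). In periderm-like cells 5 of 8 were higher, where 39.3% of all genes were, and 2 lower (6.53%).

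Of the 3 type V chains tested, *col5a1* and *col5a2a* were past the fold upward in several classes and *col5a3a* in 1. The gene *col5a1* had a higher level in *stag2b-/-* in 13 of 13 classes and passed the fold in 8 of the 10 classes where it was tested. It reached 20 CPM in 5 classes of wild type and 10 of *stag2b-/-*, so the other tested classes met the minimum in *stag2b-/-* alone. Counts of classes by direction were not made over all genes, for this member or for those below. The classes come from the same libraries, and the median gene was itself higher in *stag2b-/-* in each class. In posterior presomitic mesoderm-like cells the level of *col5a1* was 75.6 CPM (73.9 to 77.4) in wild type versus 171 CPM (168 to 173) in *stag2b-/-* (log2 ratio 1.18). In muscle-like and in anterior presomitic cells the ratio was 1.02, and in somite-like cells 0.80. The chain *col5a2a* was above wild type in 13 of 13 classes and past the fold in 5 of 11, with log2 ratios between 0.27 and 1.71. It reached 20 CPM in 9 classes of wild type and 11 of *stag2b-/-*. The chain *col5a3a* was tested in 3 classes, with ratios of 1.02 in notochord-like, -0.24 in basal epidermis-like and -0.62 in erythroid-like cells, so that it passed once in each direction. The basement membrane chain *col4a2* passed the fold in 4 of 4 tested classes, all paraxial, with log2 ratios from 0.76 to 1.14, though in posterior presomitic cells (13.3 and 29.3 CPM) the minimum was met in *stag2b-/-* alone. Its neighbour and trimer partner *col4a1* had ratios from 0.19 to 0.57 in its 3 classes and passed in none. The type IV chain *col4a6* was past the fold in the opposite direction in the same tissue, with ratios of -0.66 in posterior presomitic, -0.93 in anterior presomitic and -1.12 in muscle-like cells (21.9 and 13.9, 25.4 and 13.3, and 24.6 and 11.3 CPM), each of which met the minimum in wild type alone. Its neighbour *col4a5* was under 20 CPM in these classes of both libraries and so was not tested there. The ratios of *col4a5* in them were -1.11, -1.22 and -2.69.

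The FACIT chain *col12a1a* was likewise above wild type in 13 of 13 classes and past the fold in 4 of 5, from 7.57 to 21.9 CPM in anterior presomitic cells (log2 ratio 1.53, 1.18 to 1.89) and from 182 to 305 CPM in neural crest-like cells (0.74, 0.53 to 0.97). The NMP-like, anterior presomitic and neuron-like pairs past the fold met the minimum in *stag2b-/-* alone. In anterior presomitic cells the 7 neural crest markers summed to 69.8 CPM in wild type (4 of 7 at 1 CPM or more, sox10 at 0) versus 121 CPM in *stag2b-/-* (5 of 7), a part that was not tested. The laminin alpha chain *lama4* was past the fold in the 3 classes that met the minimum, of which notochord-like and somite-like met it in *stag2b-/-* alone. Its level was 16.0 and 36.4 CPM in notochord-like cells, a log2 ratio of 1.19, 10.8 and 24.8 CPM in somite-like cells (1.20), and 38.7 and 58.9 CPM in muscle-like cells (0.61). In skin, the anchoring fibril gene *col7a1* was at 87.5 CPM (84.1 to 91.0) in wild type versus 208 CPM (203 to 214) in *stag2b-/-* basal epidermis-like cells, a log2 ratio of 1.25, while its paralogue *col7a1l* had a ratio of 0.42. The gene *col28a2a* had a ratio of 1.17 in the same class and 0.38 in neural progenitor-like cells.

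Among the lower pairs were the type I alpha 1 chains in skin and 4 members in neural progenitor-like cells. In basal epidermis-like cells *col1a1a* was at 149 CPM (145 to 154) in wild type versus 55.7 CPM (53.1 to 58.5) in *stag2b-/-* (log2 ratio -1.42), with UMIs in 42.7% and 20.5% of thinned cells against 1.35% and 0% of erythroid-like cells. Its paralogue *col1a1b* had a ratio of -1.29 there (38.0 and 15.6 CPM) and met the minimum in wild type alone. The partner chain of the type I trimer, *col1a2*, had a ratio of -0.33 (-0.38 to -0.28) in the same cells. The type I alpha 1 chains were thus lower by more than *col1a2* in this class, a difference between genes that was not tested.

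In neural progenitor-like cells *col11a1b* was at 49.0 CPM in wild type versus 10.3 CPM in *stag2b-/-* (log2 ratio -2.25), from 1612 UMIs in 765 of 2031 cells and 472 UMIs in 341 of 3093 cells. The paralogue *col11a1a* had a ratio of -0.26 there. The other lower members of the class were *col14a1a* (151 and 69.7 CPM, -1.12), *col2a1a* (24.0 and 12.1 CPM, -0.99) and *col9a2* (29.1 and 15.6 CPM, -0.91). Of these and *col11a1b*, only *col14a1a* was at 20 CPM in both libraries, and the others met the minimum in wild type alone. The chain *col14a1a* was past the fold downward in 4 of its 5 tested classes. In basal epidermis-like cells, its highest class, its ratio was 0.19. Over the same cells the 7 floor plate markers summed to 53.5 CPM in wild type versus 24.9 CPM in *stag2b-/-*, 5 of the 7 at 1 CPM or more in each library and *ferd3l* at 0 in both. The 9 notochord markers, *chrd* among them, summed to 876 and 619 CPM, with 7 of 9 at 1 CPM or more in each. The part of these cells in the lower collagen levels was not tested. The gene *col11a1b* was also lower in notochord-like cells, at 39.0 and 14.3 CPM (-1.44, -1.80 to -1.09), again meeting the minimum in wild type alone. It was not lower in muscle-like cells, its highest class, at 59.5 and 75.2 CPM.

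Several of the largest ratios rested on small numbers or moved together with markers of another class. In endothelial-like cells *col8a2* was at 23.5 CPM in wild type versus 102 CPM in *stag2b-/-* (log2 ratio 2.12, 1.82 to 2.44), from 110 UMIs in 51 of 258 cells and 464 UMIs in 124 of 281 cells. In erythroid-like cells its ratio was 2.67, from 29 and 165 UMIs, and there the 9 endothelial markers summed to 382 CPM in wild type versus 547 CPM in *stag2b-/-*, 6 of 9 at 1 CPM or more in each, *tie1* being at 0 in *stag2b-/-*. Their part in the *col8a2* ratio was not tested. In the opposite direction, endothelial-like cells had 30.6 CPM of *col1a1a* in wild type versus 3.53 CPM in *stag2b-/-* (-3.11, -3.96 to -2.36), and 86.5 and 35.5 CPM of *col18a1a* (-1.28, -1.56 to -1.02). In these cells the 8 basal epidermis markers summed to 295 and 167 CPM, all 8 at 1 CPM or more in each library, and their part was not tested. The ratio of *col18a1a* was also past the fold downward in erythroid-like cells (-1.25) and in anterior presomitic cells (-0.64).

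In neural crest-like cells, of which there were 69 in wild type and 136 in *stag2b-/-*, the FACIT gene *col16a1* had 40 UMIs in 26 cells of wild type and 6 UMIs in 6 cells of *stag2b-/-* (31.5 and 2.73 CPM, log2 ratio -3.53). It was lower in *stag2b-/-* in 10 of 13 classes. In the same cells *col7a1* had 10 UMIs in 6 cells and 80 UMIs in 45 cells (2.21, 1.25 to 3.32). The 8 basal epidermis markers summed there to 554 and 652 CPM, all 8 at 1 CPM or more in each library, and were not tested for their part in it. In neuron-like cells *col15a1b* had 19 and 102 UMIs (2.25, 1.54 to 3.04), and the 9 muscle markers summed to 13.3 CPM in wild type, with *srl* and *myog* at 0 and 3 of 9 at 1 CPM or more, and to 76.7 CPM in *stag2b-/-*, with 7 of 9, a part that was not tested. The chain *col12a1a* had 24 and 70 UMIs in neuron-like cells (1.37), where the 7 neural crest markers summed to 36.4 CPM in wild type (6 of 7 at 1 CPM or more, sox10 at 0) versus 85.8 CPM in *stag2b-/-* (5 of 7, crestin at 0), a part that was not tested. In periderm-like cells the ratios of *col2a1a* (-4.33), *col5a1* (2.59) and *col5a2a* (1.71) came from 53, 7 and 18 UMIs in wild type and 3, 48 and 67 UMIs in *stag2b-/-*, and the 8 basal epidermis markers summed to 1298 and 2093 CPM, all 8 at 1 CPM or more. The markers of the paraxial classes were also at higher sums there in *stag2b-/-*, at 406 and 556 CPM for posterior presomitic (8 of 8 at 1 CPM or more in each), 57.7 and 173 CPM for anterior presomitic (6 and 7 of 7, mespba at 0 in wild type), 144 and 300.4 CPM for somite (7 and 5 of 8, uncx at 0 in both) and 35.4 and 65.9 CPM for muscle markers (5 and 8 of 9, chrna1 at 0 in both). The part of any of these was not tested.

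The notochord-like genotype ratios differed between the *noto* states, which make up different shares of the class in each library. Within noto-positive cells 4 of 19 members were at least 1.5-fold higher in *stag2b-/-* (12.2% of all genes) and 4 lower (6.01%). Of these, *col18a1a*, *col5a2a* and *lama4* met the 20 CPM minimum in *stag2b-/-* alone and *col11a1b* in wild type alone. Within cells without *noto* 3 of 20 were higher (15.4%) and 2 lower (10.5%). Among them, *col19a1-1* met the minimum in *stag2b-/-* alone, and both lower members, *lamc3* and *col11a1b*, in wild type alone. This division was added after seeing the data. In the whole class *col2a1a* had a ratio of 0.22 (0.17 to 0.26), yet it was at 439.7 and 236 CPM in noto-positive cells, a ratio of -0.90 (upper bound -0.79), and at 4541 and 4686 CPM in cells without *noto*, a ratio of 0.05 (-0.01 to 0.10). The intervals of the state ratios did not overlap, and the difference between states was not tested. In noto-positive cells *col8a1a* (-0.77) and *col9a3* (-0.59) were past the fold downward as well, *col4a5* (-0.54) and *col2a1b* (-0.53) did not reach it, and the type IX chain *col9a2* was past it upward, with a ratio of 0.76 (0.42 to 1.11). In cells without *noto* the ratios of *col8a1a*, *col9a3*, *col4a5*, *col2a1b* and *col9a2* were -0.56, 0.15, 0.29, 0.02 and -0.04. The noto-positive cells were not alike in their markers. In wild type and *stag2b-/-*, *cmn* was at 59.4 and 27.7 CPM, *tbxta* at 1255 and 1015 and *twist2* at 774 and 611. There *shha* (383 and 303) and *foxa2* (607 and 565) were also lower, while *foxa* (228 and 305) and *chrd* (10.4 and 15.9) were higher. The part of these differences in the collagen ratios was not tested.

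The gene *col5a3a*, whose ratio was 1.02 over the class, showed the reverse. It had 134 and 139 CPM in noto-positive cells (0.05, -0.11 to 0.20) and 1466 and 2556 CPM in cells without *noto* (0.80, 0.72 to 0.88). The laminin *lama4* was higher in both states, with ratios of 0.83 and 1.25, and *lama5* had 0.02 and 0.45. The chain *col11a1b* was lower in both, from 225 to 82 UMIs and from 30 to 7 UMIs, with ratios of -1.19 and -2.53. The laminin gamma chain *lamc3* had 27 UMIs in wild-type cells without *noto* and 2 in *stag2b-/-*.

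**Figure D5:**
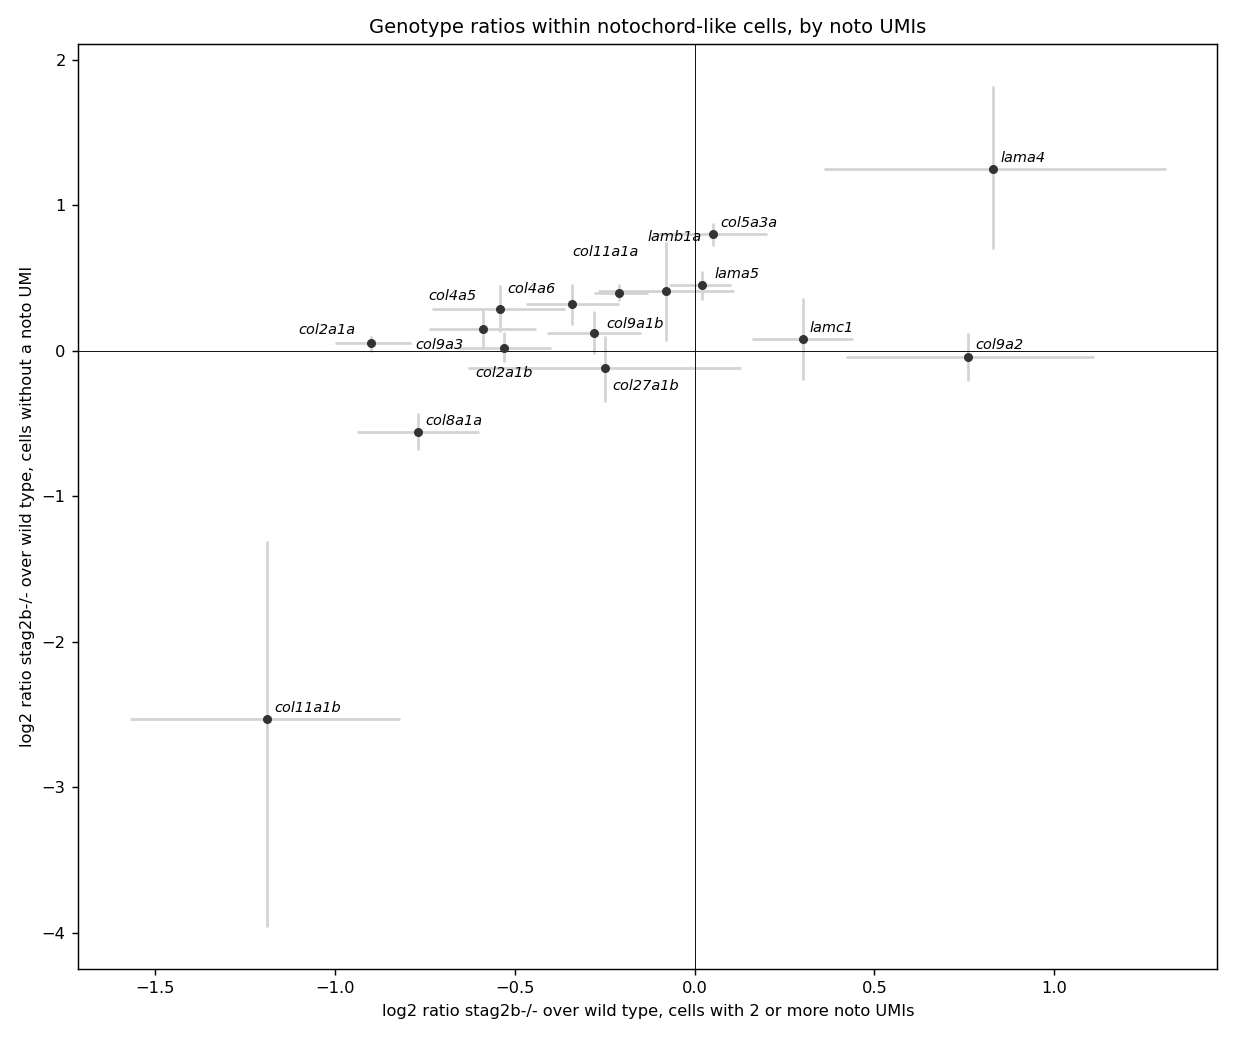
Log2 ratio of CPM, *stag2b-/-* over wild type, in notochord-like cells with at least 2 *noto* UMIs (x axis) and with no *noto* UMI (y axis), for the members tested in both states, with exact 95% counting intervals. The points of *col2a1a* (-0.90 and 0.05) and *col5a3a* (0.05 and 0.80) lie off the diagonal, and those of *lama4*, *col8a1a* and *col11a1b* have the same sign in both states.

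Genes that make and place collagen were counted by the class of their highest level. Of the 17 collagen processing genes with at least 20 CPM, 13 were highest in notochord-like cells of wild type, where 11.8% of all genes at 20 CPM were highest. Among them were *serpinh1b*, the collagen chaperone Hsp47 (1365 CPM in wild type versus 1883 in *stag2b-/-*), the prolyl hydroxylase *p4ha1b* (1107 and 755 CPM, against 63.3 CPM in wild-type basal epidermis-like cells) and *ppib*, a prolyl isomerase (1200 and 1259 CPM). The paralogue *serpinh1a* was highest in basal epidermis-like cells instead, at 129.6 and 169.8 CPM. All 5 secretion genes at 20 CPM, including the coat proteins *sec23a* and *sec24d*, were highest in notochord-like cells of wild type, though *creb3l2* was nearly level with basal epidermis-like cells (102.4 and 101.8 CPM). The 4 cross-linking enzymes at 20 CPM, *loxl1*, *loxl2b*, *loxl3b* and *loxl5b*, were also highest there, and *loxl5b* stood at 677 CPM in wild type with 3.84 CPM in the next class.

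The partners of laminin were more divided. Of 10 genes with at least 20 CPM, 4 were highest in notochord-like cells (*nid1b*, *hspg2*, *agrn* and *itga6a*, with *hspg2* nearly level between notochord-like and muscle-like cells at 189 and 186 CPM) and 3 in basal epidermis-like cells (*itga3b*, *itga6b* and *bcam*). Of all genes at 20 CPM in wild type, 11.8% were highest in notochord-like and 7.24% in basal epidermis-like cells. The integrin pair differed between these classes: *itga6a* was at 328 CPM in notochord-like and 4.81 CPM in basal epidermis-like cells of wild type, and *itga6b* at 29.4 and 64.0 CPM. Between genotypes, in notochord-like cells 2 of 16 processing genes were at least 1.5-fold higher in *stag2b-/-* (*serpinh1a* and *bmp1a*) and 1 lower (*adamts3*, an N-proteinase), where 10.9% of all genes were higher and 5.46% lower. For the 4 cross-linking genes there the counts were 1 higher (*loxl5b*, 677 and 1053 CPM) and 1 lower (*loxl2b*), for the 9 laminin partners 1 higher (*itga6b*) and 0 lower, and for the 5 secretion genes 0 in either direction. The lower genes *adamts3* (39.4 and 17.7 CPM) and *loxl2b* (27.6 and 13.1 CPM) met the 20 CPM minimum in wild type alone. In basal epidermis-like cells 3 of 13 processing genes were higher (*p4ha1a*, *plod1a* and *plod2*) and 0 lower, against 11.3% and 4.3% of all genes. Of these, *p4ha1a* (15.39 and 24.65 CPM) and *plod2* (16.06 and 25.93 CPM) met the minimum in *stag2b-/-* alone. The cross-linking gene *loxl3b* was past the fold upward in 7 of the 9 classes where it was tested, with log2 ratios between 0.69 in somite-like and 1.92 in neuron-like cells, while in notochord-like cells, its highest class, the ratio was 0.16.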

How the data were processed

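Single cells of dissected tailbuds were captured on the 10x platform, with 1 library per genotype. The labels name chemistry v2 and the methods v3. The authors mapped reads with Cell Ranger 7.1.0 to GRCz11 and a curated transcriptome, keeping intronic reads. What the authors deposited are raw UMI counts of each gene in each called cell, without normalization or doublet removal.

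Cells with fewer than 200 genes, above the 98th percentile of genes or with over 15% mitochondrial UMIs were left out. The methods word the upper limit as a share of the median, and it was read as a percentile. Doublets were called with Scrublet in Scanpy 1.11.5 in place of Solo. Cells were gated by raw marker UMIs, and the authors' cell labels were not used here. UMIs were summed per class and library into CPM with exact Poisson intervals. Log2 ratios have exact conditional binomial intervals and shares of cells exact Clopper-Pearson intervals, after thinning to 5000 UMIs per cell. Intervals are 95% intervals for counting error. A gene was tested with at least 20 CPM in the higher group and counted as past the fold at 1.5-fold, with no p-value. The members, gene lists, markers and gates were chosen with earlier results of these data known.

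The rule for named genes took all laminins with at least 10 CPM in a wild-type class, the 3 collagens with the highest wild-type CPM in each class and the 8 largest ratios in each direction; other members are given by block, state or paralogue and were chosen after their values were seen. Reads of near-identical paralogues may be split in ways not tested here. Alternatives were other gates, doublets kept, at most 5% mitochondrial UMIs, thinned counts, the mean over cells, 50 CPM, 2-fold, TMM library sizes (trimmed mean of M values), and centring on the median gene. The alternatives without periderm-like cells and by *noto* state were chosen after seeing the data. The scripts were tested on simulated data.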

Additional observations from a re-analysis of the deposited data

Results flagged for a closer look

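The ratio of *col5a3a*, *stag2b-/-* over wild type, was 1.02 in notochord-like and -0.62 in erythroid-like cells. That of *col18a1a* was 0.66 in periderm-like and -1.28 in endothelial-like cells, and that of *lama5* was 1.34 in periderm-like and -0.69 in muscle-like cells. These are log2 ratios that passed 1.5-fold in opposite directions in different classes of the same libraries, which is why they are set out here, and the difference between classes was not tested for any of them. The periderm-like values of *col18a1a* and *lama5* belong to the shallow class, where the median gene had a log2 ratio of 0.37. With doublets kept, the sign of the ratio turned for *col18a1a* in periderm-like and for *lama5* in muscle-like cells.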

How the results depend on the processing

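The class in which members were highest and the count of members higher in notochord-like cells without *noto* stayed within 1.5 times the reported counts under every alternative run. With at least 50 CPM the member-class pairs numbered 18 higher and 4 lower, and at 2-fold 12 were lower. In the *noto* division, members lower without *noto* fell to 0 (50 CPM) and 1 (2-fold) in wild type, and to 1 (thinned), 1 (mean over cells) and 0 (50 CPM) in *stag2b-/-*. In the paraxial series, members lower in somite-like cells fell to 1 in each library at 50 CPM, and those higher in *stag2b-/-* to 4 at 2-fold. Less the median gene, the gene-class pairs of the other lists that were higher fell from 51 to 30, and those lower went from 10 to 14. Before centring, 13.7% of all gene-class pairs were higher and 5.78% lower. The 51 pairs are a bare count, not a share of those tested, and *loxl3b* alone gave several of them. Of the 57 member-class pairs past the fold, the sign turned in 3 of 450 values over 8 alternatives: *lama5* in muscle-like and *col18a1a* in periderm-like cells with doublets kept, and *col14a1a* in periderm-like cells by the mean over cells. The periderm-like ratio of *col5a1* ranged from 0.65 (mean over cells) to 4.28 (thinned), and the basal epidermis-like ratio of *col1a1a* was -1.64 with TMM. At least 4 markers left 12 classes, without neural crest-like cells. The cause of these shifts was not tested, beyond the fewer genes that a higher minimum leaves. No paired analysis was possible because each genotype has 1 library. Classes of few cells limit the depth behind a ratio, as do members with under 50 UMIs.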

Other observations

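Some members had low levels in most classes that differed between the libraries mostly in a shared direction, and *lamb2l* and *col19a1-1* are given here. The laminin beta chain *lamb2l* was lower in *stag2b-/-* in 13 of 13 classes. Outside neural progenitor-like cells its level lay between 0.746 and 3.94 CPM in the 12 wild-type classes and between 0 and 0.384 CPM in the 12 *stag2b-/-* classes, so the ranges did not overlap, while in neural progenitor-like cells it was at 20.9 and 15.3 CPM. The row *col19a1-1* was higher in *stag2b-/-* in 12 of 13 classes. In classes other than muscle-like it lay between 0 and 25.1 CPM in wild type and between 5.49 and 24.2 CPM in *stag2b-/-*, and in erythroid-like cells it was at 0.478 and 5.71 CPM. The other row of the same RefSeq gene, *col19a1*, was higher in *stag2b-/-* in 7 classes and lower in 5. Outside muscle-like cells *col19a1* lay between 0 and 12.9 CPM in wild type and between 0 and 13.3 CPM in *stag2b-/-*. The direction seen for *col19a1-1* was thus not shared by both rows of the gene. The members *lamb2l* and *col19a1-1* were chosen after their values were seen. Other members also went the same way in every class, as *col5a1*, *col5a2a* and *col12a1a* were higher in *stag2b-/-* in 13 of 13. How many of all genes shared a direction over the classes, or had ranges apart, was not counted.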
